A study of Mus musculus with 5 samples.

Results

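The longer intronic bktRNAs are 14 of the 43 RNAs in the deposited table of the 15.5K precipitation. They were chosen by table fields alone: a type of intron, a length of 40 nt or more, a label that is not a repeat element, and a name other than bktRNA1. The libraries are 5 replicates of 1 group, from mouse Hepa1-6 hepatoma cells that stably overexpress FLAG-tagged 15.5K and were grown with puromycin. RIP-PEN-seq here means precipitation with an antibody to the tag, removal of ribosomal RNA and sequencing of the recovered RNA as small RNA libraries. No control library was analysed here, so each value is a level in the precipitated RNA and not an enrichment. Whether the replicates come from separate cultures is not stated in the labels, and p-values measure only the spread between these libraries, which may be technical.

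The 15.5K protein, also known as Snu13, binds kink turns, sharp bends in RNA formed by a short bulge next to sheared G-A pairs. In box C/D snoRNAs the kink turn is built from box C, near the 5′ end, and box D, near the 3′ end, and it seeds the complex that methylates ribosomal RNA. In bktRNAs, read as backward kink-turn RNAs, the boxes come in the opposite order, with box D first. The stretch between the boxes then folds back on itself as a stem closed by a loop, so a longer RNA can hold a larger loop.

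The sequences that carry this layout are shown 5′ to 3′ as deposited, with T for U. In capitals are box D (CTGA, the first 4 capitals), the 2 strands of the uninterrupted Watson-Crick stem that begins right after box D, and the 6 fixed bases of box C (the last capitals). A single lower-case base stands between the stem and box C. The first 4 show the longest stem, an abundant RNA, an RNA listed at an even level in every library, and the shortest member.
bktRNA8: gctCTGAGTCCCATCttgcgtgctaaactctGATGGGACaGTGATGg
bktRNA5: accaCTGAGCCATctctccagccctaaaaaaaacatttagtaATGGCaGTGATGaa
bktRNA15: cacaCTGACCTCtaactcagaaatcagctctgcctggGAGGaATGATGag
bktRNA22: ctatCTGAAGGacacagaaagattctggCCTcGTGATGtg

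The next 5 show a tract of repeated triplets before box C, a pairing that goes on outside the boxes, a likeness between RNAs of different genes, and the longest member.
bktRNA16: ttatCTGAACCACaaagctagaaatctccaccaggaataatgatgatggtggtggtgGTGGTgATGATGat
bktRNA19: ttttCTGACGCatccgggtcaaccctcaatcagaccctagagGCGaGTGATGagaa
bktRNA17: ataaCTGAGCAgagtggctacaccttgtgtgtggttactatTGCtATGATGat
bktRNA42: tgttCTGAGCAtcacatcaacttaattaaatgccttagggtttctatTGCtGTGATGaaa
bktRNA29: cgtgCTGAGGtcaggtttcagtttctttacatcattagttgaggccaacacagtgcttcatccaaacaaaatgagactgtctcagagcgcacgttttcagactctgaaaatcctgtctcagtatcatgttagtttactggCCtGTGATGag

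On mm10, bktRNA8 lies at chr16:5115971-5116017 on the minus strand in intron 1 of Ppl, the gene for periplakin, a linker of the cytoskeleton to cell junctions. bktRNA5 lies at chr5:144831497-144831552 on the plus strand in intron 51 of Trrap, a scaffold of histone acetyltransferase complexes. bktRNA15 lies at chr7:110270769-110270818, plus strand, in intron 7 of Swap70, and bktRNA22 at chr11:22842985-22843024, minus strand, in intron 1 of B3gnt2, a glycosyltransferase gene. bktRNA16 lies at chr3:127693440-127693510, minus strand, in intron 4 of Alpk1, an alpha-kinase gene. bktRNA19 is the member on the X chromosome, at chrX:93472120-93472175, minus strand, in intron 32 of Pola1, which encodes the catalytic subunit of DNA polymerase alpha. bktRNA29 lies at chr16:91033835-91033985, minus strand, in intron 7 of Paxbp1. bktRNA42 lies at chr4:21790975-21791034, plus strand, in intron 5 of the deubiquitinase gene Usp45.

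Box D was CTGA in each of the 14 members, and box C began with G (GTGATG) in 10 and with A (ATGATG) in 4. The members with A were bktRNA3, bktRNA15, bktRNA16 and bktRNA17. The base after these 6 is A in a full box C. It was A in 11 members, G in bktRNA8, T in bktRNA22 and C in bktRNA37. Among the 14 short intronic RNAs, those under 40 nt chosen by the same fields, 10 had the G form and 6 had A at that place, and over all 43 RNAs the A stood in 27. The deposited distances fit these boxes in all 43 RNAs, so the boxes were probably used in listing them, though the sources do not say so. Their presence is therefore no finding, and the counts only describe the forms.

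The deposited 5′ distance equalled the bases before box D and the 3′ distance the bases after the 6 fixed bases of box C. The 5′ distance was 4 nt in 13 members and 3 nt in bktRNA8. The 3′ distance was 2 nt in 10 members, 1 nt in bktRNA8, 3 nt in bktRNA42, and 4 nt in bktRNA3 and bktRNA19. The added length of these RNAs therefore lay between the boxes and not outside them. Both 4 nt and 2 nt occurred together in 10 of the 14 longer and in 10 of the 14 short intronic RNAs.

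The stem next to the boxes was as long in longer as in short intronic RNAs by its median, 4 base pairs in each set. It ran from 2 base pairs in bktRNA29 to 8 in bktRNA8, against 3 to 6 in the short RNAs. A stem of 4 or more base pairs was read in 8 members and in 9 short RNAs. At least 2 of the pairs were G-C in every member, and bktRNA8 had 5. The members with 5 base pairs were bktRNA5, bktRNA16, bktRNA25 and bktRNA41, and those with 3 were bktRNA3, bktRNA17, bktRNA19, bktRNA22 and bktRNA42. The stems were read from the letters, and no test was made of them. Whether a stem was required in listing the RNAs is not stated, so its presence is no finding either.

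The deposited score had a median of 11 in the members and of 10.5 in the short RNAs. In 13 members it equalled the hydrogen bonds of the stem, with 2 for an A-U pair and 3 for a G-C pair. bktRNA29 was the exception, with a score of 14 and 6 bonds. Its stem reads 2 pairs, then a G-U pair, then 3 further Watson-Crick pairs, and when the G-U pair is passed over without points its bonds come to 14. The same reading gives bktRNA25, with a score of 14, a total of 17, so passing over G-U pairs was not the rule for every RNA.

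The loop is where the members differed most in size. Its median was 30.5 nt, with 16 nt in bktRNA8 and 130 nt in bktRNA29 as the ends of the range, while the short RNAs had a median of 5.5 nt and at most 15 nt. This difference follows from the length rule and was not tested. A loop of over 40 nt occurred in 5 members, namely bktRNA3 (43 nt), bktRNA16 (44 nt), bktRNA34 (60 nt), bktRNA25 (73 nt) and bktRNA29. At the other end, bktRNA22 had 17 nt and bktRNA37, in the transcription factor gene Nfia, had 18 nt.

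Thermodynamic folding left many of these stems out. In the fold of lowest free energy of the whole RNA, all pairs of the stem were present in 5 members, bktRNA3, bktRNA8, bktRNA15, bktRNA16 and bktRNA17. bktRNA22 had 2 of its 3 pairs and the other 8 members had 0. Of these 8, bktRNA19 and bktRNA25 had the whole stem when isolated pairs were barred, and also when only box D to box C was folded. Their lowest pair probabilities were 0.371 and 0.576. bktRNA3 and bktRNA16 lost the stem when only box D to box C was folded. In the short RNAs the whole stem was present in 8 of 14. By pair probability the stem was firmest in bktRNA17 (lowest pair 0.991), bktRNA8 (0.941), bktRNA15 (0.926) and bktRNA16 (0.917), and it was 0.035 in bktRNA5. It was below 0.001 in bktRNA29, bktRNA34, bktRNA37, bktRNA41 and bktRNA42. The folding model knows no sheared G-A pairs and no bound protein, so an absent stem says only that other pairings had lower computed energy.

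The stretch read as the loop held pairings of its own, also where the fold lacked the stem. The fold of lowest energy had 34 pairs within this stretch of bktRNA29, 18 in bktRNA34, 16 in bktRNA25, 14 in bktRNA3 and 12 in bktRNA17. That fold had the whole stem in bktRNA3 and bktRNA17. In bktRNA29, bktRNA34 and bktRNA25 it had 0 pairs of the stem, so no stem closed a loop in it. In all, 10 members had 4 or more pairs within this stretch, bktRNA37 had 0, and the short RNAs had at most 3. A short loop has little room for pairs, so this contrast is bound to the length rule and was not tested. The free energy ran from -39.4 kcal/mol in bktRNA29 to -9.2 kcal/mol in bktRNA22 and bktRNA37. Per nucleotide it was lowest in bktRNA17, at -0.37 kcal/mol, and highest in bktRNA42, at -0.177 kcal/mol.

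On the outer side of the fixed bases, pairing went on in some members. The base before box D and the base after the 6 fixed bases, which is the last base of a full box C, were a Watson-Crick pair in 7 members and a G-U pair in bktRNA8. The next bases were a Watson-Crick pair as well in 5 of the 7, bktRNA3, bktRNA16, bktRNA34, bktRNA41 and bktRNA42, and a G-U pair in bktRNA19. bktRNA19 had the longest run, with 3 Watson-Crick pairs and that G-U pair over the 4 nt on either side. The short intronic RNAs had the first pair as Watson-Crick in 5 of 14 and both pairs in 5, and all 43 RNAs had the first in 19. These counts were not tested.

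bktRNA17 and bktRNA42, from different chromosomes, were alike before box C. In the 15 nt upstream of it they shared 12 bases at the same place, where the 91 pairs of members had a median of 5 and the next most alike pair had 10. Those 12 bases include the 3-base strand of the stem next to box C, which is the same in both. After box D the most alike pair shared 9 of 15 bases. bktRNA16 holds 4 copies of RTGATG (R is A or G), which lie in its triplet tract, and bktRNA3 holds 2, so more than 1 placement of box C can be read in them. The other 12 members hold 1 copy.

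Although none of the members bears a repeat label, 3 shared a 20 nt stretch in sense with annotated spliced transcripts of other genes. For bktRNA5 these were 479 other genes in all, with shared stretches between nt 1 and 29, where box D and the 5′ strand of the stem lie. No single 20 nt stretch of bktRNA5 was shared with more than 392 genes. For bktRNA16 they were 20 genes in all, at most 10 for a single stretch, between nt 40 and 71, the triplet tract with box C. For bktRNA42 they were 15 genes in all, at most 6 for a single stretch, between nt 31 and 60, also with box C. The remaining 11 members and all 14 short intronic RNAs shared no such stretch in sense. In antisense bktRNA15 shared such stretches with 2 genes, and bktRNA5, bktRNA16 and bktRNA42 with 451, 44 and 12 genes in all. The sources used here do not say how reads that fit several places were counted.

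The hosts are 14 distinct genes on 12 chromosomes. Every member lies on the strand of its host, with no annotated gene on the other strand, as do the short intronic RNAs. Besides those named, Impa2, an inositol monophosphatase gene, hosts bktRNA3 in intron 1 (chromosome 18, 67294589 to 67294656, plus strand). Dpysl2, whose product binds tubulin in growing axons, hosts bktRNA25 in intron 7 (chromosome 14, 66825234 to 66825333, minus strand). Tead3, a transcription factor gene of the Hippo pathway, hosts bktRNA34 in intron 2 (chromosome 17, 28340311 to 28340395, minus strand). Nfia hosts bktRNA37 in intron 2 (chromosome 4, 97814690 to 97814732, plus strand), and Zbtb16, a zinc finger repressor gene, hosts bktRNA41 in intron 3 (chromosome 9, 48741294 to 48741345, minus strand). bktRNA17, in B230118H07Rik (chromosome 2, 101610050 to 101610102, minus strand), overlaps an exon in 2 of the 12 annotated transcripts of its host and lies in intron 2 of another. The table gives it the type intron and an exon label. bktRNA22 lies within B3gnt2 and also within Gm28048 on the same strand.

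The members lay at widely different distances from splice sites. The nearest splice site was within 500 nt in 5 members and over 1000 nt away in 7, with a median of 1405.5 nt. bktRNA34 was the closest, ending 92 nt before the 3′ splice site of an intron of 1130 nt, the shortest host intron. bktRNA29 began 112 nt after the 5′ splice site, bktRNA3 ended 302 nt before the 3′ splice site, bktRNA17 began 421 nt after the 5′ splice site and bktRNA5 began 444 nt after it. At the other end, bktRNA37 lay 31076 nt into an intron of 172760 nt. Of the 13 short intronic RNAs with an annotated host intron, 3 were within 500 nt of a splice site, with a median of 1201 nt. The 5′ splice site was the nearer in 8 members and in 10 of those 13 short RNAs.

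Taken as a sum, most of which was bktRNA3 there, the members held a larger share of the listed reads in library 5 than in the other libraries. In RPM, reads scaled to a common library size, their sums were 7.09, 5.60, 8.63 and 7.81 in libraries 1 to 4, against 19.2 in library 5. Of the RPM of all 43 RNAs this was 10.1%, 6.99%, 8.88% and 8.17%, and 30.8% in library 5, where bktRNA3 alone held 85.3% of the members' sum. With bktRNA1 left out of the total, the shares were 29.7%, 22.7%, 26.8% and 31.6%, and 88.1% in library 5. The members have 70 values, with 25 of them at 0 in the table. Above 0 were 10, 7, 11, 10 and 7 members in libraries 1 to 5.

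The mean over 5 libraries was above 1 RPM in 3 members, which hold 78.1% of the summed means. In Impa2, bktRNA3 measured 1.81, 1.79, 2.28, 1.85 and 16.4 RPM over libraries 1 to 5. Its first 4 values lie close together and the fifth stands far above them. The mean was 4.82 RPM ± 6.45 (SD, n = 5), and 1.93 RPM without library 5. bktRNA5 in Trrap had 1.78, 1.74, 2.11 and 2.57 RPM in libraries 1 to 4 and is listed at 0 in library 5, with a mean of 1.64 RPM ± 0.975 (SD, n = 5). bktRNA8 in Ppl, the RNA with the longest stem, had 1.32, 1.20, 1.61 and 1.31 RPM and is also listed at 0 in library 5, with a mean of 1.09 RPM ± 0.627 (SD, n = 5). In libraries 1 to 4 bktRNA3 and bktRNA5 were at like levels, with bktRNA8 below both in each library.

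A second tier of 4 members had means between 0.354 and 0.398 RPM, and their order is not set apart by the spread. bktRNA15 in Swap70 was the steadiest, with 0.424, 0.379, 0.305, 0.424 and 0.461 RPM, a mean of 0.398 RPM ± 0.0599 (SD, n = 5). bktRNA16 in Alpk1 had 0.526, 0.110, 0.378, 0.651 and 0.288 RPM, lowest in library 2. These and bktRNA3 are the 3 members above 0 in every library. bktRNA17 in B230118H07Rik had 0.672, 0.788 and 0.488 RPM in libraries 1, 3 and 4 and is listed at 0 in libraries 2 and 5. bktRNA19 in Pola1 ran the other way, with 1.32 RPM in library 5, 0.331 RPM in library 2, 0.114 RPM in library 3, and 0 listed in libraries 1 and 4. Its mean of 0.354 RPM falls to 0.111 RPM without library 5.

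The other 7 members had means under 0.2 RPM. bktRNA22 in B3gnt2 was above 0 only in libraries 1 (0.263 RPM) and 3 (0.693 RPM). bktRNA25 in Dpysl2 had 0.117, 0.260 and 0.346 RPM in libraries 1, 4 and 5, and bktRNA29 in Paxbp1 had 0.0551, 0.0651 and 0.288 RPM in libraries 2, 4 and 5. Both of these longest members were thus highest in library 5. bktRNA34 in Tead3 had 0.189 and 0.0976 RPM in libraries 3 and 4, and bktRNA37 in Nfia had 0.117 and 0.115 RPM in libraries 1 and 5. bktRNA41 in Zbtb16 had 0.0630 and 0.0976 RPM in libraries 3 and 4, and bktRNA42 in Usp45 had 0.0584 and 0.0945 RPM in libraries 1 and 3. Each of these 4 is listed at 0 in 3 libraries.

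The reads behind the lowest values are few. The low values of a library are near multiples of a step, and if 1 step is 1 read, libraries 1, 3, 4 and 5 hold 34200000, 31700000, 30800000 and 17400000 reads. In library 2 the step made only 57.1% of the values whole, so no depth was read from it. Over those 4 libraries bktRNA3 had 476 steps, bktRNA5 had 207 and bktRNA8 had 137, while bktRNA41 and bktRNA42 had 5 each. No member value above 0 in them was under 2 steps, and whether a listed 0 can hide 1 read was not tested. The levels of the last 6 members in the order, each under 20 steps, cannot be ranked at this depth. RPM is not divided by length. Per 100 nt of RNA the first 4 members kept their order, with 7.09, 2.93, 2.32 and 0.797 RPM.

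Libraries 1 to 4 ranked the members more like each other than like library 5. Across the 14 members, Spearman's rho lay between 0.587 and 0.818 for the 6 pairs of libraries 1 to 4, and between -0.127 and 0.442 for the 4 pairs with library 5. These are descriptions over RNAs of the same libraries. In library 5, 7 members are listed at 0, and 5 have their highest value: bktRNA3, bktRNA15, bktRNA19, bktRNA25 and bktRNA29. Of the 14 short intronic RNAs 1 was highest there.

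Mean RPM bore little relation to the score, stem length, loop size or length of the members. Across 14 members Spearman's rho was 0.0516 with the score, 0.192 with stem length, -0.15 with loop size and -0.0792 with length. It was -0.301 with the length of the host intron and -0.297 with the distance to the nearest splice site. Abundant members thus included a stem of 3 base pairs with a loop of 43 nt (bktRNA3) and a stem of 8 with a loop of 16 nt (bktRNA8). Among the members, the predicted stem did go along with mean RPM. The 5 members with the whole stem in the fold of lowest energy were among the first 6 in mean. Those with a lowest pair probability below 0.001 had the 5 lowest means, 0.0306 to 0.0816 RPM, which rest on few reads. Against this, bktRNA5, at 1.64 RPM, had 0.035. In the short set, bktRNA2 (5.93 RPM) had 0.997 and bktRNA43 (0.0299 RPM) had 0.916, both with the whole stem in the fold. The relation of predicted stem and mean RPM was not tested.

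Longer and short intronic RNAs were compared within each library. The mean per RNA was 0.690 RPM in the longer and 0.856 RPM in the short set over 5 libraries, a difference of -0.166 RPM ± 0.776 (SD, n = 5; exact two-sided sign-flip permutation test over libraries, p = 0.688). The smallest p that 5 libraries allow is 0.0625. The difference was -0.377, -0.694, -0.575 and -0.384 RPM in libraries 1 to 4, against 1.20 RPM in library 5. Without library 5 it was -0.507 RPM ± 0.155 (SD, n = 4; exact p = 0.125, the smallest possible). It rests on single RNAs: bktRNA2, a 36 nt RNA in Khdrbs1, holds 49.5% of the summed means of the short set, and bktRNA3 holds 49.9% of that of the longer set. Without library 5 these shares were 51.6% and 26.5%.

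Detection was compared in the same way. On average 64.3% of the longer and 58.6% of the short RNAs were above 0 in a library, a difference of 5.71 percentage points ± 12.8 (SD, n = 5; exact two-sided sign-flip permutation test, p = 0.5). The longer set had the higher share in 4 of 5 libraries. Counting values of 0.1 RPM or more, both sets had 54.3% and the longer set was higher in 2 libraries, and with a length minimum of 35 nt the difference was -0.889 points. Without library 4 it was 1.79 points and without library 2 it was 10.7 points. Neither difference is larger than the spread between libraries.

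Around the length limit, the shortest members were bktRNA22 (40 nt, 0.191 RPM), bktRNA37 (43 nt, 0.0464 RPM) and bktRNA8 (47 nt). The short intronic RNAs next below were bktRNA32 in Mtbp (38 nt, 0.0708 RPM), bktRNA43 in App (37 nt, 0.0299 RPM) and bktRNA2 (36 nt, 5.93 RPM). bktRNA32 is above 0 only in libraries 3 (0.126 RPM) and 4 (0.228 RPM), with a mean of 0.0315 RPM without library 4. bktRNA43 is above 0 only in libraries 2 (0.0551 RPM) and 3 (0.0945 RPM), with 0.0138 RPM without library 3. bktRNA2 is listed at 0 in library 5 and had a mean of 7.42 RPM in the others. bktRNA22 and bktRNA37 rest on 2 libraries each, as given above.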

How the data were processed

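Per the submitters' processing notes, the authors used cutadapt 2.8, STAR and bedtools with build mm10. The sources used here do not say how RNAs were called or reads counted. The deposited library values are in RPM per the file headers, and their denominator is not stated. The deposited score has no stated definition. The deposited lengths and distances are in nt.

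The members and lists were chosen with earlier results of these data known. Each member is named, with full values for those that are abundant or differ in a feature. The sequence of bktRNA3 is not shown here. Stems were read inward from the base after box D and the base before the single base next to box C, Watson-Crick pairs only, with a loop of at least 1 nt, and were checked on built sequences. Folds were computed with ViennaRNA 2.7.2 at 37 °C. Introns, strands and spliced transcripts were taken from GENCODE M21, built on that assembly, and 20 nt stretches were matched exactly, leaving out the host. Intron numbers, intron lengths and splice site distances are those of the transcript named with each RNA. Where the RNA lay in no intron of it, another transcript of the host was used. The named transcript has only 1 intron in Impa2 and in B3gnt2, so these are not numbers for the whole gene. Starts are given 1-based. No filter on low values was used. Steps were searched only within a set range of sizes, which bounds the implied reads. As the step of a library the largest was taken that no smaller step beat by more than 0.2 in the share of whole values (within 0.05 steps). It was used where 70% or more were whole. Sets were compared with exact sign-flip permutation tests over libraries, in Python 3.11.15 with pandas 2.3.3, numpy 2.4.6 and scipy 1.17.1.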

Additional observations from a re-analysis of the deposited data

Results flagged for a closer look

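By Dixon's ratio of gap to range, library 5 stood past the 95% limit in 6 of the 18 sets of values looked at, and no other library did in any set. Chance marks about 1 set in 20 where values are normal and sets independent, and neither holds here, since many values are at 0 and the sets overlap. bktRNA3 had 16.4 RPM in library 5, where the others had 1.79 to 2.28 RPM. bktRNA8 is listed at 0 RPM there against 1.20 to 1.61 RPM. bktRNA19 had 1.32 RPM there against at most 0.331 RPM, and bktRNA29 had 0.288 RPM against at most 0.0651 RPM. The members' summed RPM was 19.2 in library 5 against 5.60 to 8.63, and the mean difference from the short set was 1.20 RPM there against -0.694 to -0.377 RPM. The last 2 share bktRNA3 with the first. Library 5 also has the fewest implied reads, 17400000, of the 4 libraries whose depth could be read, and lists 16 of the 43 RNAs above 0 against 25 to 31 in the others. The part of depth, culture, precipitation or library preparation in this was not tested.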

How the results depend on the processing

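With 5 libraries no exact p can reach 0.05, so only size and sign are compared. The difference in mean RPM from the short set, -0.166 RPM, turned in sign with a length minimum of 35 nt (0.299 RPM) or 45 nt (0.0218 RPM) and with medians over RNAs (0.00741 RPM). With 35 nt, bktRNA2 moves to the longer set. The difference in detection, 5.71 percentage points, turned to -0.889 with 35 nt and was 0 for values at or above 0.1 RPM. Leaving out 1 library gave -0.507 to -0.0335 RPM and 1.79 to 10.7 percentage points. Leaving out bktRNA3 gave -0.483 RPM. Chosen after seeing the data, leaving out bktRNA2 and bktRNA3 gave -0.0925 RPM, and RPM per 100 nt gave -1.42. Counts of stems of 4 or more base pairs were 8 or 9 of 14 under the other readings, and counts of stems in the fold 5 or 7. Within 200 nt in place of 500 nt of a splice site there were 2 members, and with any transcript of the host 5. The mean of 9 members moved by over 1.5 times without 1 library, 5 of them without library 5; in bktRNA22 it ran from 0.0657 to 0.239 RPM. The set comparisons are paired within libraries, and with 1 group there is no pairing between groups to try. With few reads behind most members, depth limits the order of the low ones and any statement on values listed at 0.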
